A study of Homo sapiens with 6 samples.

Results

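The mRNA of SNAPC1 stood at 201 ± 8.52 CPM (estimated counts scaled by library totals with TMM factors; SD, n = 3) after control-siRNA and at 95.6 ± 2.41 CPM (SD, n = 3) after TAZ-siRNA in the breast cancer line MDA-MB-231, which is 47.5% of control-siRNA. SNAPC1 encodes a subunit of the small nuclear RNA (snRNA)-activating complex, SNAPc. The genes described are SNAPC1, its partners SNAPC2, SNAPC3, SNAPC4 and SNAPC5, and the TFIIIB factors BRF1, BRF2, TBP and BDP1, which are 9 of the 46427 genes in the deposited gene table. SNAPC1 was chosen by its measured fold change, since its mRNA was lower with TAZ-siRNA in these same libraries, so its change is given as a description with no test. The other 8 genes were picked because they work with it, and all 9 genes passed the filter on low counts that left 16966 genes tested.

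SNAPc binds the proximal sequence element upstream of snRNA genes, where it directs RNA polymerase II to most spliceosomal snRNA genes and RNA polymerase III to the U6 gene and a few genes built like it. RNA polymerase III is placed on its genes by TFIIIB, in which TBP and BDP1 join either BRF1, at tRNA genes, or BRF2, at the U6-type genes that also use SNAPc. TAZ, the product of WWTR1, is a transcriptional coactivator of the Hippo pathway that reaches DNA through TEAD factors.

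The study compared 3 preparations of this human cell line given control-siRNA (genotype labelled WT) with 3 preparations transfected with siRNA against WWTR1 (labelled TAZ knockdown). All 6 were grown in low glucose medium, and the data come from a single line and a single siRNA product. How long the sequenced cells were treated and which control siRNA was used are not given in the sources used here.

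The 6 libraries held 48307548 to 71749634 estimated counts, so that 3 counts corresponded to 0.0411 to 0.0618 CPM. WWTR1 was at 189.7 to 192 CPM with control-siRNA and 15.1 to 17.3 CPM with TAZ-siRNA, or 8.64% of control-siRNA. Among markers of the line, VIM, CD44, KRT8 and KRT18 had group means between 496 and 3574 CPM, and KRT19 was at 63.4 CPM with control-siRNA and 81.7 CPM with TAZ-siRNA (adjusted p = 0.0012). Of genes that should be low in the line, ESR1 and PGR had 0 to 6 counts per library and CDH1 and EPCAM group means of 0.168 to 1.30 CPM, while ERBB2 was at 46.7 and 55.2 CPM. The leukocyte genes PTPRC and CD3E had 0 counts in every library, and the endothelial gene PECAM1 was at 4.67 CPM with control-siRNA and 5.61 CPM with TAZ-siRNA. Replicates are numbered 1, 2 and 3 in each group, as in the sample descriptions. The sample titles number the same libraries 3, 4 and 5. TAZ-siRNA replicate 3 (5 in its title) stood furthest from its group.

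SNAPC1 lies on chromosome 14 of GRCh38, from 61762420 to 61796428 on the plus strand, and its main annotated transcript has 10 exons. The 250 bases before its start are shown because the study lowered a cofactor of DNA-bound factors. They were read from RefSeq (GRCh38.p14) at chr14:61762170-61762419 on the plus strand, 5′ to 3′, and the capitals mark the GC box GGGCGG, the element bound by Sp1-type factors.
SNAPC1: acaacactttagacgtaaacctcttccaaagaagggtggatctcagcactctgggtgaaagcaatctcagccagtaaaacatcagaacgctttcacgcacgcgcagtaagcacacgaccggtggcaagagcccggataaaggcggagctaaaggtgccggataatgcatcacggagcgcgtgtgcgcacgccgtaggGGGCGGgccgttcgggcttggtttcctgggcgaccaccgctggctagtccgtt
This stretch held 57.6% G and C, 22 CG dinucleotides and 1 GC box, 53 bases before the start. It held 0 copies of GGAATG, the core letters recognised by TEAD factors, and 0 copies of TGACTCA, the AP-1 site, on either strand. Of 35116 such promoter windows, 11.9% held GGAATG, 4.20% held TGACTCA and 42.6% held GGGCGG. The letters are a description of this window only. The 12 windows found for 7 of the 9 genes held 1 GGAATG, at an alternative BRF1 start, and 0 TGACTCA, while 7 windows held a GC box. No window was searched for SNAPC4 or BRF2.

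With control-siRNA, SNAPC1 was at 209.7, 201 and 193 CPM, and with TAZ-siRNA at 97.7, 93.0 and 96.3 CPM. The highest TAZ-siRNA library was well below the lowest control-siRNA library. The log2 fold change was -1.07 with a standard error of 0.050 (95% interval -1.18 to -0.96). Of 9939 tested genes that averaged 10 CPM or more, 12 had a lower log2 fold change than SNAPC1, and of all 16966 genes tested, 154 did. In bulk RNA, fewer cells that express a gene and less of its RNA per cell cannot be told apart.

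**Figure D1:**
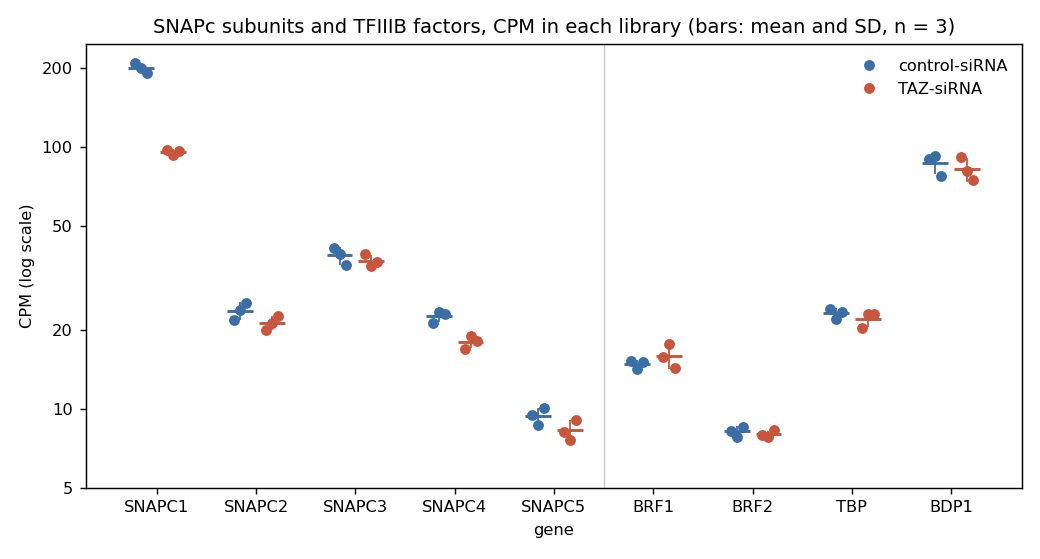
CPM (log scale) of the 9 genes in each library, with points for libraries and lines for the mean and SD of the 3 libraries of a group. The 3 TAZ-siRNA points of SNAPC1 sit between 93.0 and 97.7 CPM, below its control-siRNA points at 193 to 209.7 CPM, and SNAPC4 is the other gene whose groups do not overlap.

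SNAPC4, the largest subunit, which carries Myb-type repeats that contact DNA, was the partner whose mRNA fell. It was at 21.3, 23.4 and 23.0 CPM with control-siRNA and at 17.0, 18.9 and 18.1 CPM with TAZ-siRNA. All 3 TAZ-siRNA libraries were below all 3 control-siRNA libraries. The mean went from 22.6 ± 1.17 to 18.0 ± 0.968 CPM (SD, n = 3), or 79.8% of control-siRNA, with a log2 fold change of -0.33 and a standard error of 0.069. The adjusted p was 0.0079 in edgeR's quasi-likelihood test, and it ranged from 0.0011 to 0.0497 over the fits that left out a library or changed the processing. The gene spans chromosome 9 from 136375569 to 136400220 on the minus strand and overlaps no other annotated gene.

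SNAPC3, a zinc-finger subunit that contacts the proximal sequence element together with SNAPC4, was at 41.2, 39.0 and 35.4 CPM with control-siRNA. With TAZ-siRNA it was at 39.0, 35.3 and 36.3 CPM. The groups overlapped, and the log2 fold change of -0.07 had a 95% interval of -0.22 to 0.09 (adjusted p = 0.540). SNAPC3 lies on the same chromosome as SNAPC4, at 15422784 to 15466749 of chromosome 9 on the plus strand.

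SNAPC2, an accessory subunit, was at 21.8, 23.9 and 25.5 CPM with control-siRNA and at 20.1, 21.3 and 22.6 CPM with TAZ-siRNA. The ranges overlapped at their edges, and the log2 fold change was -0.15 (95% interval -0.32 to 0.01, adjusted p = 0.176). SNAPC5, the smallest subunit, was at 9.45, 8.71 and 10.1 CPM with control-siRNA and at 8.20, 7.62 and 9.11 CPM with TAZ-siRNA. Its groups overlapped too, with a log2 fold change of -0.18 (95% interval -0.39 to 0.04, adjusted p = 0.217). SNAPC2 lies on chromosome 19 (7920338 to 7923250, plus strand) and SNAPC5 on chromosome 15 (66489748 to 66497815, minus strand).

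Of the TFIIIB factors, BRF2, the factor used together with SNAPc, was at 8.25, 7.79 and 8.57 CPM with control-siRNA and at 7.94, 7.81 and 8.29 CPM with TAZ-siRNA. The TAZ-siRNA values lay inside the control-siRNA range, and the log2 fold change was -0.03 (95% interval -0.22 to 0.15, adjusted p = 0.814). BRF1, its counterpart at tRNA genes, was at 15.2, 14.2 and 15.1 CPM with control-siRNA and at 15.8, 17.7 and 14.3 CPM with TAZ-siRNA. It was the only one of the 9 genes with a positive log2 fold change, 0.10, and its 95% interval of -0.08 to 0.29 included 0 (adjusted p = 0.422). BRF2 lies on chromosome 8 (37843268 to 37849861, minus strand), and BRF1 on chromosome 14 (105209286 to 105315577, minus strand), far from SNAPC1 on the same chromosome.

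TBP, the TATA-binding protein shared by all RNA polymerases, was at 24.2, 22.1 and 23.5 CPM with control-siRNA and at 20.4, 23.0 and 23.0 CPM with TAZ-siRNA. TAZ-siRNA replicate 1 alone was below the control-siRNA range, and the log2 fold change was -0.07 (95% interval -0.23 to 0.08, adjusted p = 0.486). BDP1, which holds TFIIIB on DNA, was at 90.4, 92.7 and 77.4 CPM with control-siRNA and at 91.9, 80.8 and 74.8 CPM with TAZ-siRNA. Its groups overlapped and its log2 fold change was -0.07 (95% interval -0.27 to 0.12, adjusted p = 0.582). TBP lies on chromosome 6 (170554333 to 170572870, plus strand) and BDP1 on chromosome 5 (71455636 to 71578288, plus strand). With a correction of each library for GC content and length, BDP1 passed the test at a log2 fold change of -0.15 and an adjusted p of 0.034.

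Across all genes tested, 3749 passed the test, which is 22.1%, with 11.9% higher and 10.2% lower. Of the 8 genes other than SNAPC1, 1 passed, or 12.5%, so their share was not above this background. The groups did not overlap for 39.6% of all genes tested (19.6% with TAZ-siRNA lower) and for 1 of these 8. Without TAZ-siRNA replicate 3, 33.7% of all genes passed and SNAPC4 remained the single gene of the 8. None of the 4 TFIIIB factors passed in edgeR, 0 had an unadjusted p under 0.05, and DESeq2 also called 0. The 95% intervals of the 7 genes that did not pass ran from -0.39 to 0.29.

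**Figure D2:**
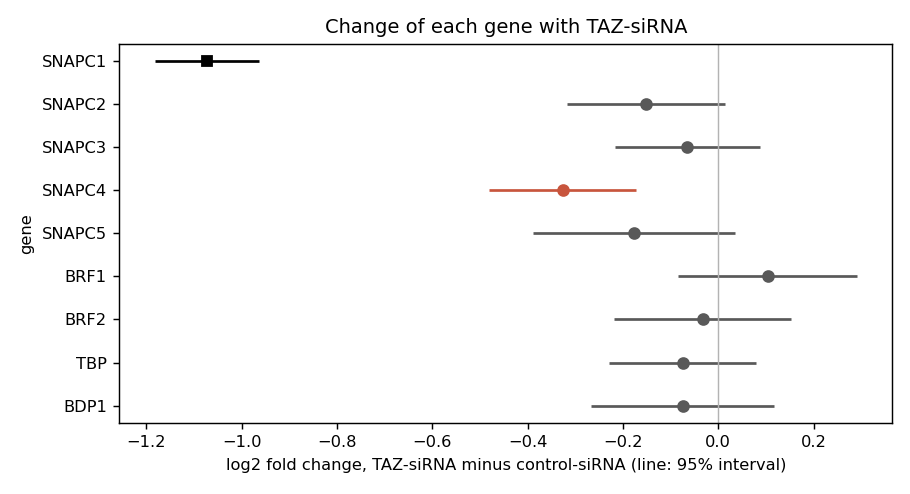
Log2 fold change of the 9 genes, TAZ-siRNA minus control-siRNA, with a point for the estimate and a line for its 95% interval (red where the gene passed the test, grey where it did not, black for SNAPC1). SNAPC1 is at -1.07 and SNAPC4 at -0.33, and the intervals of the other 7 genes include 0.

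Per length, in TPM (transcript abundance scaled to a common library total), SNAPC1 was the most abundant of the 9 mRNAs with control-siRNA at 169 ± 10.7 TPM (SD, n = 3), and 94.8% of all genes tested had a lower TPM. SNAPC2 followed at 34.5 ± 2.08 TPM, TBP at 27.2 ± 1.28 TPM and BDP1 at 17.1 ± 1.97 TPM. SNAPC3 at 16.1 ± 0.713 TPM and SNAPC5 at 15.2 ± 1.08 TPM came next, and then SNAPC4 at 10.4 ± 0.643 TPM, BRF1 at 9.31 ± 0.457 TPM and BRF2 at 6.95 ± 0.225 TPM. The ranges over libraries overlapped between BDP1 and SNAPC3, between SNAPC3 and SNAPC5, and between SNAPC4 and BRF1, so these neighbours in the order did not separate.

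With TAZ-siRNA, SNAPC1 was at 83.3 ± 4.09 TPM (SD, n = 3), still above SNAPC2 at 32.0 ± 0.947 TPM. SNAPC4 was at 8.59 ± 0.646 TPM and BRF1 at 10.4 ± 1.50 TPM, the reverse of their control-siRNA order, with ranges that overlapped in both groups. The other genes kept their places.

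The make-up of the 5 SNAPc mRNAs moved with SNAPC1, from the same values that chose it. SNAPC1 made up 70.6%, 69.3% and 66.7% of their summed TPM with control-siRNA and 55.9%, 53.6% and 53.5% with TAZ-siRNA. The ratio of SNAPC1 to SNAPC3 TPM was 10.5 ± 0.515 with control-siRNA and 5.43 ± 0.367 with TAZ-siRNA (SD, n = 3). SNAPC1 mRNA thus remained in excess over each partner in both groups. The ratio of SNAPC1 to SNAPC4 TPM was 16.3 ± 1.58 and 9.73 ± 0.887. The BRF1 to BRF2 ratio, by contrast, was 1.34 ± 0.049 and 1.47 ± 0.204.

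**Figure D3:**
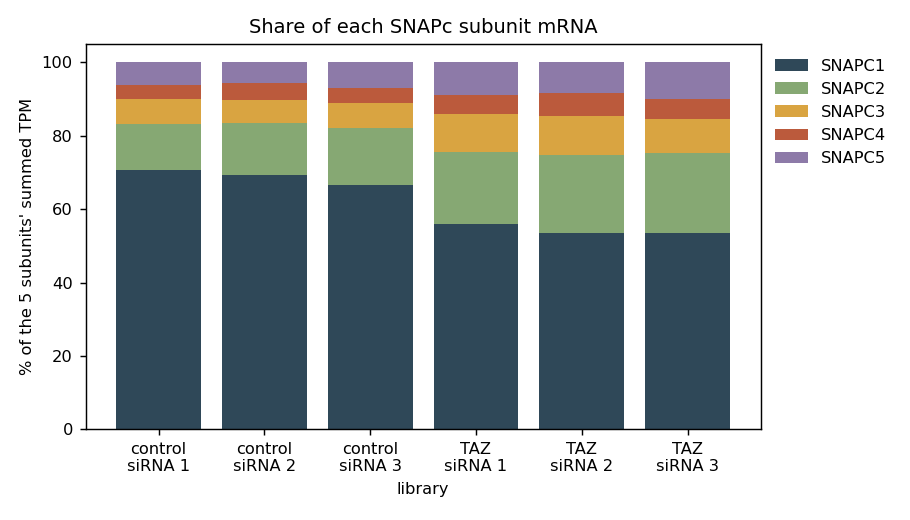
Share of each SNAPc subunit in the summed TPM of the 5 subunit mRNAs, with a stacked bar for each of the 6 libraries. SNAPC1 takes 66.7% to 70.6% of the control-siRNA bars and 53.5% to 55.9% of the TAZ-siRNA bars, and the other subunits fill the rest.

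The transcript table held a single SNAPC1 transcript, NM_003082, so its gene value is that of this mRNA. SNAPC2 had 2 transcripts, and their balance differed between libraries, a pattern chosen after its values were seen and not tested. The non-coding NR_030717, which starts further downstream, had 375, 311 and 405 counts with control-siRNA and 155, 172 and 196 counts with TAZ-siRNA. The coding NM_003083 had 1081, 1174 and 832 counts with control-siRNA and 1308, 880 and 1069 counts with TAZ-siRNA. The groups did not overlap for NR_030717 and did overlap for NM_003083. For SNAPC4 the split between transcripts was not stable, since NM_003086 took 3.38% to 81.3% of the summed TPM of the gene's transcripts over the 6 libraries.

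Several of the genes share bases with a neighbour. The libraries were made with a stranded kit, but strand use in the counting is not given in the sources used here. Reads in shared stretches thus cannot be assigned with certainty. SNAPC3 overlaps PSIP1 over 2684 bases, SNAPC5 overlaps MAP2K1 over 1797 bases, and BRF1 overlaps PACS2 over 14860 bases and BTBD6 over 2561 bases. BRF2 overlaps ADGRA2 over 1629 bases. These 5 neighbours had log2 fold changes of -0.11, 0.00097, 0.13, 0.01 and 0.28, with adjusted p from 0.067 to 0.993. Without TAZ-siRNA replicate 3, PACS2 and ADGRA2 passed at log2 fold changes of 0.19 and 0.37 (adjusted p = 0.029 and 0.0053). BDP1 overlaps a pseudogene with 0 counts and SNAPC5 a microRNA gene, MIR4512, that was not tested. SNAPC1, SNAPC2, SNAPC4 and TBP overlap no annotated gene.

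Within 250 kb of SNAPC1 there were 4 genes averaging 1 CPM or more, and 3 of them passed the test, where 22.1% of all genes tested did. These 3 are not separate loci, since they are HIF1A and the antisense genes HIF1A-AS3 and HIF1A-AS2, which overlap it. HIF1A-AS2 averaged 1.01 CPM, close to the limit. HIF1A, which encodes the oxygen-regulated subunit of hypoxia-inducible factor, ends 14161 bases before SNAPC1 begins, on the same strand. It was at 296, 299 and 282 CPM with control-siRNA and at 447, 407 and 415 CPM with TAZ-siRNA, with no overlap. Its mRNA rose, with a log2 fold change of 0.53 and a standard error of 0.058 (adjusted p = 2.5e-04), while that of SNAPC1 was lower.

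HIF1A-AS3, a non-coding gene on the minus strand that overlaps HIF1A, starts 11323 bases from the SNAPC1 start, and the 2 genes run away from each other. Its upstream 250 bases (RefSeq, GRCh38.p14, chr14:61751098-61751347, minus strand) are shown because it moved in the direction of SNAPC1 from the facing promoter, with GC boxes in capitals on either strand.
HIF1A-AS3: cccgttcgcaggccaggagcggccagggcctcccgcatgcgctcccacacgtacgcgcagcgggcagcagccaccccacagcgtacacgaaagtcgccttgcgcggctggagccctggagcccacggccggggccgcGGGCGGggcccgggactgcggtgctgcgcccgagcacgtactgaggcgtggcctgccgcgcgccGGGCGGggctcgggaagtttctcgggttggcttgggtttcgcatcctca
It held 0 GGAATG, 0 TGACTCA and 2 GC boxes, 113 and 49 bases before the start. HIF1A-AS3 had 293, 251 and 210 counts with control-siRNA and 50, 42 and 61 counts with TAZ-siRNA, all lower. The log2 fold change was -2.29 with a standard error of 0.18 (adjusted p = 6.3e-05). HIF1A-AS2, a shorter minus-strand gene that also overlaps HIF1A, had 116, 110 and 48 counts with control-siRNA and 46, 27 and 23 counts with TAZ-siRNA, with a log2 fold change of -1.50 (adjusted p = 0.0039). Reads of these genes and of HIF1A cannot be told apart where they overlap unless strand was used. HIF1A-AS2 also lies within the span of HIF1A-AS3 on the same strand. Strand thus cannot separate reads of these 2 antisense genes in any bases they share. PRKCH, 211440 bases away, did not pass the test (log2 fold change -0.10, adjusted p = 0.510).

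**Figure D4:**
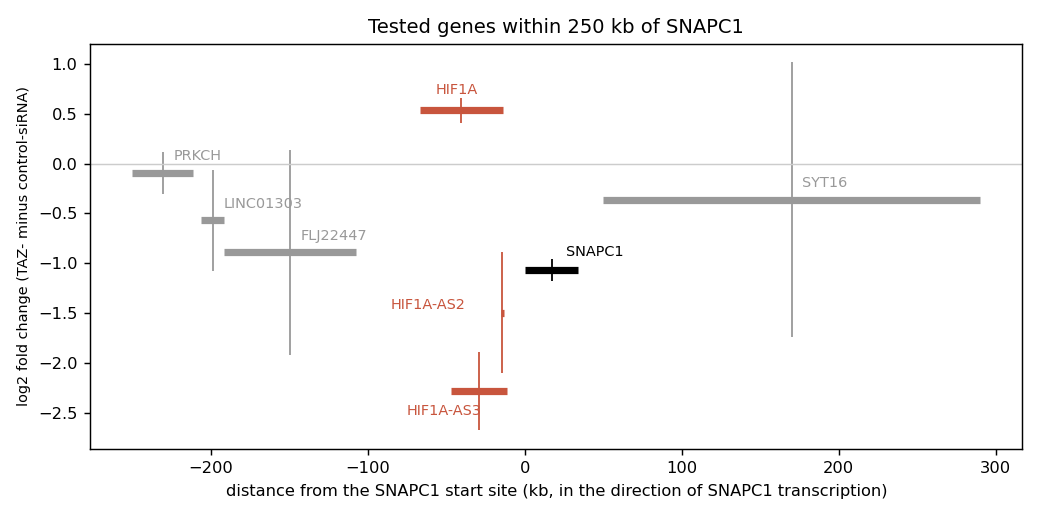
Log2 fold change of the tested genes within 250 kb of SNAPC1 against distance from the SNAPC1 start site in kb, with thick bars for gene spans (the bars of PRKCH and SYT16 are cut at the edges) and thin lines for 95% intervals (red where the gene passed the test, grey where it did not, black for SNAPC1). HIF1A is at 0.53, while SNAPC1, HIF1A-AS2 and HIF1A-AS3 are at -1.07, -1.50 and -2.29.

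The 5 genes whose pattern over the 6 libraries was most like that of SNAPC1, by root mean square difference of centred log2 CPM among 13590 genes averaging 1 CPM or more, were PAWR, ALMS1-IT1, CCN2, AOX1 and BIRC3. PAWR, a pro-apoptotic regulator, differed by 0.042 and was at 146 CPM in control-siRNA and 72.6 CPM in TAZ-siRNA libraries. CCN2, the connective tissue growth factor, differed by 0.0772 and was at 800.0 and 395 CPM. The measure was computed over the same libraries that chose SNAPC1.

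The wider machinery was read from 8 gene lists, of which 100 genes were tested. Of these, 2 rose and 15 fell, or 17.0%, against the background of 22.1%, and their median log2 fold change was -0.06 against -0.0054 for all genes. Among 18 RNA polymerase III subunits, 2 fell and 16 did not pass. POLR3K, a small subunit used in transcript termination, went from 12.7 ± 1.14 to 9.66 ± 0.0667 CPM (SD, n = 3; log2 fold change -0.39, adjusted p = 0.0088), and POLR3D from 81.9 to 67.4 CPM (log2 fold change -0.28, adjusted p = 0.0022). The alternative subunits POLR3G and POLR3GL had log2 fold changes of -0.16 and 0.11, with adjusted p of 0.108 and 0.236.

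Without TAZ-siRNA replicate 3, 39 of the 100 genes passed, among them 10 of the 18 subunits, where 33.7% of all genes did.

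Of 7 TFIIIA and TFIIIC genes, GTF3A, the factor of the 5S RNA gene, fell with a log2 fold change of -0.20 (adjusted p = 0.0166), a call that was lost without control-siRNA replicate 1 or 3 or TAZ-siRNA replicate 1 (adjusted p up to 0.081). Of 10 activators and regulators, MYC fell from 133 to 108 CPM (log2 fold change -0.30, adjusted p = 0.0097), and lost its call without control-siRNA replicate 1 or TAZ-siRNA replicate 1 (adjusted p up to 0.056). The snRNA gene activators POU2F1 and ZNF143 had log2 fold changes of 0.07 and 0.05, and MAF1, the repressor of RNA polymerase III, 0.03, none of which passed. With all 6 libraries, 1 of these 10 and 1 of the 7 TFIIIA and TFIIIC genes passed, where 22.1% of all genes tested did. Without TAZ-siRNA replicate 3, 5 of the 10 passed (3 higher, 2 lower), where 33.7% of all genes did. POU2F1 was among them at 0.20 (adjusted p = 0.0079), and its sign and that of MAF1 changed in other fits. None of the 4 little elongation complex genes passed in edgeR, 0 had an unadjusted p under 0.05, and DESeq2 called 0.

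Among 15 Integrator genes, whose complex cleaves nascent snRNAs, INTS6 rose with a log2 fold change of 0.27 (adjusted p = 0.0045), and INTS13 and INTS11 fell with -0.29 and -0.16 (adjusted p = 0.0023 and 0.033). Among 23 TBP partners, TAF11 rose with a log2 fold change of 0.29 (adjusted p = 0.0045), while 4 fell, among them TAF1D with -0.29 (adjusted p = 0.0024) and TAF9 with -0.29 (adjusted p = 0.0106). In these 2 lists the changes went both ways. The test was passed by 3 of 15 Integrator genes and 5 of 23 TBP partners, where 22.1% of all genes tested passed. With all 6 libraries, neither list's share was thus above this background. With each library omitted in turn, INTS11 passed in 1 of 6 fits (adjusted p up to 0.115), TAF9 in 3 of them (adjusted p up to 0.055) and TAF13, another that fell, in 2 (adjusted p up to 0.073).

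Of 17 genes of snRNA export and assembly, 5 fell, 0 rose and 15 had a negative log2 fold change, with a median of -0.15. Over all genes tested 22.1% passed, 10.2% fell and 50.8% had a negative log2 fold change. The list's count was 1 or 2 on leaving out any library but TAZ-siRNA replicate 3. Over all genes, those fits gave 1937 to 2687 calls, against 3749 with all 6 libraries. Without TAZ-siRNA replicate 3 the list's count was 9, where 33.7% of all genes passed. GEMIN5, which binds snRNAs for loading of the Sm ring, fell with a log2 fold change of -0.36 (adjusted p = 7.5e-04). GEMIN6 and SNUPN, the snurportin that carries snRNPs into the nucleus, fell with -0.31 and -0.23 (adjusted p = 0.0236 and 0.0148). Of these, GEMIN6 passed in 2 and SNUPN in 3 of 6 fits with a library omitted, with adjusted p up to 0.109 and 0.071, while GEMIN5 passed in all 6. SMN1 and SMN2 are near-identical copies and their split is uncertain.

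**Figure D5:**
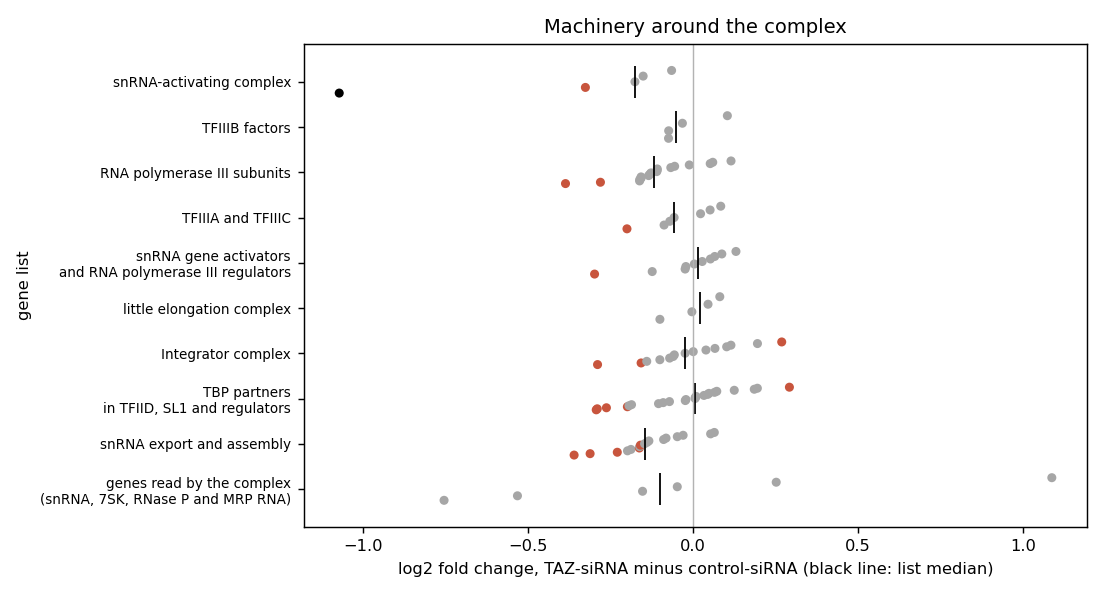
Log2 fold change, TAZ-siRNA minus control-siRNA, of each tested gene in the lists around SNAPc, with a point for each gene (red where it passed the test, grey where it did not, black for SNAPC1) and a black line for the list median. The medians lie between -0.18 and 0.02, and SNAPC1 at -1.07 is the lowest point.

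The RNAs made from SNAPc-dependent genes could hardly be read from these libraries, which were prepared for mRNA, while snRNAs carry no poly(A) tail and come from near-identical gene copies. Of 28 such genes listed, 26 were in the table and 6 were tested. RN7SK had 121, 134 and 240 counts with control-siRNA and 143, 79 and 140 counts with TAZ-siRNA (log2 fold change -0.53, adjusted p = 0.364). RNU6-1 had 21, 16 and 12 counts with control-siRNA and 17, 13 and 17 counts with TAZ-siRNA. The groups overlapped for both genes. RNU6ATAC, an snRNA of the minor spliceosome, had 3, 6 and 8 counts with control-siRNA and 13, 10 and 14 counts with TAZ-siRNA. These groups did not overlap, and the log2 fold change was 1.09 with a 95% interval of -0.05 to 2.22 (adjusted p = 0.158). RMRP had the lowest log2 fold change of the 6, -0.75 (adjusted p = 0.431), with overlapping groups. It had 29, 15 and 72 counts with control-siRNA and 31, 27 and 15 counts with TAZ-siRNA. RPPH1, which was not tested, was lower without overlap, at 9, 9 and 31 against 6, 1 and 6 counts. Over all genes tested, the groups did not overlap for 39.6%, and of these 6 for 1. None of the 6 passed in edgeR, 0 had an unadjusted p under 0.05, DESeq2 called 0, and limma on log2(FPKM + 1) called RNU6ATAC as higher (log2 difference 0.58, adjusted p = 0.033). Apart from RN7SK, the counts were too low to settle differences in the RNA products. For RN7SK the control-siRNA libraries spread from 1.81 to 4.94 CPM. Control-siRNA replicate 3 was the highest of them, as it was for RMRP and RPPH1.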

How the data were processed

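RNA of MDA-MB-231 cells, 3 cell preparations per group, was sequenced from mRNA libraries made with the TruSeq Stranded mRNA kit. The authors trimmed the paired reads, aligned them to GRCh38 with HISAT2 and assembled transcripts with StringTie (versions not given in the sources used here; the submitters' processing notes also name Bowtie 0.12.2 and mm8, with no role). They deposited estimated counts, which were all whole numbers, with FPKM and TPM values, per gene and per transcript.

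Deposited counts were tested with edgeR 4.0.16 (R 4.3.3; TMM, filterByExpr with a minimum count of 10, robust quasi-likelihood, Benjamini-Hochberg over all genes tested, threshold 0.05). CPM were scaled by the library totals multiplied by their TMM factors. The deposited FPKM were tested with limma 3.58.1 after adding 1 or 0.1 and taking log2, and the deposited TPM served comparisons between genes. DESeq2 1.42.0, other scalings, other filters, a replicate block, a GC and length spline and the omission of each library were alternatives. The test was checked on simulated counts. An exact permutation test of 3 against 3 cannot go below 0.1 and was not used.

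The genes and lists were chosen with earlier results of these data known. Named genes were the 9 genes and WWTR1, up to 3 called genes per direction and list by size of change with groups that did not overlap, genes of at least 1 CPM within 250 kb of SNAPC1, genes overlapping any of the 9, and the 5 genes most alike. Other genes named were chosen after their values were seen. Motifs were searched on both strands in the 250 bases before each RefSeq start. Intervals of fold changes are 95% intervals of the fit. BRF2, on chromosome 8, was not searched, and no window was available for SNAPC4.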

Additional observations from a re-analysis of the deposited data

How the results depend on the processing

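The log2 fold change of SNAPC1 ranged from -1.10 to -1.04 when libraries were left out in turn and from -1.08 to -1.03 over the other 9 alternatives. SNAPC4 passed in all of these. None of the 9 genes, nor any gene reported as having passed, changed direction. Of genes reported as not passing, some log2 fold changes changed sign. With libraries left out, POU2F1 ranged from -0.0096 to 0.1998, MAF1 from -0.0025 to 0.054, RN7SK from -0.793 to 0.031 (the latter without control-siRNA replicate 3), RNU6-1 from -0.148 to 0.075 and MAP2K1 from -0.056 to 0.043. With the GC and length correction POU2F1 was at -0.029, RNU6-1 at 0.084, PACS2 at -0.00015 and MAP2K1 at -0.0067, and MAP2K1 was also at -0.0036 with upper-quartile factors, -0.0031 with no filter and -0.0015 with the replicate block. POLR3GL passed with the correction and ADGRA2 with the block. The median over all genes was -0.0054 in the reported fit and 0.0012 in limma with 1 added, and that over the snRNA genes went from -0.10 to 0.15 without control-siRNA replicate 3. Of the genes named, HIF1A, HIF1A-AS2 and HIF1A-AS3 also passed throughout. The size of the HIF1A-AS2 change varied, from -1.50 to -0.42 over the 9 alternatives that kept all libraries. Of the 8 genes other than SNAPC1, 2 passed with the GC and length correction against 1 in the reported fit. Over all 16966 genes tested, that correction gave 4540 calls (2059 higher, 2481 lower), against 3749 in the reported fit. Of the 100 genes in the wider lists, 17 passed in the reported fit, 28 with the replicate number as a block (5 higher, 23 lower), 30 with the GC and length correction (5 higher, 25 lower), and 7 to 39 with a library left out. Leaving out control-siRNA replicate 1, 2 or 3 gave 7, 11 or 8, and leaving out TAZ-siRNA replicate 1, 2 or 3 gave 8, 13 or 39. The count over all genes, 3749, was lowest, 1937, when control-siRNA replicate 2 was left out and highest, 5928, when TAZ-siRNA replicate 3 was. It was 2262, 2115 and 2046 on leaving out, in turn, control-siRNA replicates 1 and 3 and TAZ-siRNA replicate 1. The cause was not tested. Deviations of same-numbered libraries from their group means had correlations of -0.0173, 0.00865 and 0.0698. With 3 libraries per group these values cannot decide whether the numbers pair the libraries. The block gave 5122 calls over all genes, against 3749 in the reported fit. GTF3A, MYC, INTS11, TAF9, TAF13, GEMIN6 and SNUPN lost their call in some fits that left out a library, INTS11 also in limma and TAF13 also with the GC and length correction. The low counts of the snRNA genes in these mRNA libraries limit what could be seen.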
